A study of Rattus norvegicus with 6 samples.

Results

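The genes of the AMPA and NMDA receptor subunits, the main channels through which glutamate acts on neurons, were examined in spinal cord neurons cultured from newborn Sprague-Dawley rats. They were taken by gene symbol, with earlier results of these data known, and made up 10 of the 17648 genes in the expression matrix. The genes were GRIA1, GRIA2, GRIA3 and GRIA4 for the AMPA receptor and GRIN1, GRIN2A, GRIN2B, GRIN2C, GRIN2D and GRIN3A for the NMDA receptor. RNA of 6 libraries had been sequenced. The Glu + siR-Con group (3 libraries) was transfected with a control small interfering RNA, and the Glu + siR-GAL3 group (3 libraries) with one against galectin-3 (GAL3, gene LGALS3). Pups were 1 day old when the cells were taken, and Ara-C, which blocks dividing cells, was added to the cultures at 0.05 mg/mL. After 3 days in culture came exposure to 10 μM glutamate, lasting 1 h, and then 16 h in medium without it. The design text has this exposure for both groups. The sample labels instead gave saline for the siR-Con libraries and called the siR-GAL3 samples a knockout, so every comparison below carries this uncertainty about the exposure of the siR-Con libraries. All values were expression values derived from FPKM, that is, read numbers scaled to transcript length and library size and then corrected by the authors, with 3.86% of all values below 0. The sequencing depth was unknown, so no counting error is given. Nothing in the labels said that the replicates came from separate cultures, so p-values measure only the spread between these libraries. The paper also reports that differences within groups were corrected. Every SD, SE and p-value below therefore describes the spread left after that correction, which may be smaller than before it.

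AMPA receptors are tetrameric cation channels that open within milliseconds of glutamate binding and carry fast excitation. GRIA2 encodes the subunit that, once its transcript is edited in the pore region, keeps calcium out, and GRIA1, GRIA3 and GRIA4 encode subunits that form calcium-permeable channels when GRIA2 is missing. NMDA receptors need the GluN1 subunit (GRIN1), which binds glycine or D-serine, together with GluN2 subunits (GRIN2A to GRIN2D), which bind glutamate, and their calcium current is the classical route to excitotoxic death of neurons. GRIN2A and GRIN2B are the best known GluN2 genes of mature and developing neurons, GRIN2D is known from embryonic and neonatal cord, and GRIN2C is known from cerebellar granule cells and from glia. GRIN3A encodes a glycine-binding subunit that lowers calcium flow.

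The promoter windows of GRIN1 and GRIN2C are shown because GRIN2C exceeded GRIN1 in every library, and of this pair only GRIN1 had non-overlapping groups. They are the 250 bases before the annotated start of the gene on the minus strand in RefSeq (GRCr8), written 5′ to 3′, at chr3:28528755-28529004 for GRIN1 and at chr10:101005139-101005388 for GRIN2C. Capitals mark CG dinucleotides.
GRIN1: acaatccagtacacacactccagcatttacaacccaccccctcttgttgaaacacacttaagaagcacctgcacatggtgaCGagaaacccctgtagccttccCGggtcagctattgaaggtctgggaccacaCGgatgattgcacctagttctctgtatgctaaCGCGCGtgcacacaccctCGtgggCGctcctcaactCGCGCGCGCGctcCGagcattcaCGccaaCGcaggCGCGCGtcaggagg
GRIN2C: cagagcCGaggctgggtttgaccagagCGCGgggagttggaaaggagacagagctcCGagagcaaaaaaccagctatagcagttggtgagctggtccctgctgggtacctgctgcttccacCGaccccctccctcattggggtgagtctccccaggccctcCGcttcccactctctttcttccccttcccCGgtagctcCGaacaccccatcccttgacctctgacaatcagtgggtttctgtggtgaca
The GRIN1 window held 19 CG and 57.6% G or C, and 18.4% of the 33469 rat promoter windows of this length held at least as many CG. The GRIN2C window held 8 CG and 59.6% G or C, a number of CG reached by 41.6% of the windows, against a median of 5. All 10 symbols matched RefSeq and 5 had a promoter window in the table used. The genome build of the expression values is not given in the sources used here, so the windows describe the reference only.

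GRIA2 was the most abundant of the 10 subunits. Its expression value was 1.80, 1.91 and 1.85 in siR-Con replicates 1 to 3 and 1.91, 1.14 and 1.83 in siR-GAL3 replicates 1 to 3. All libraries but siR-GAL3 replicate 2 lay close together, and the groups overlapped. GRIA1, whose subunit is delivered to synapses during potentiation, was at 0.833, 0.792 and 0.846 in siR-Con and at 0.604, 0.544 and 0.694 in siR-GAL3. The 3 siR-GAL3 values of GRIA1 lay below every siR-Con value. GRIA3 was at 0.790, 0.610 and 0.660 in siR-Con and at 0.692, 0.717 and 0.814 in siR-GAL3. GRIA4, a subunit of fast-closing channels, was at 0.842, 0.740 and 0.702 in siR-Con and at 0.824, 0.526 and 0.848 in siR-GAL3. For GRIA3 and GRIA4 the groups overlapped. Of the 17648 genes, 48.1% had a mean of at least 1, and among the AMPA subunits only GRIA2 did.

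**Figure D1:**
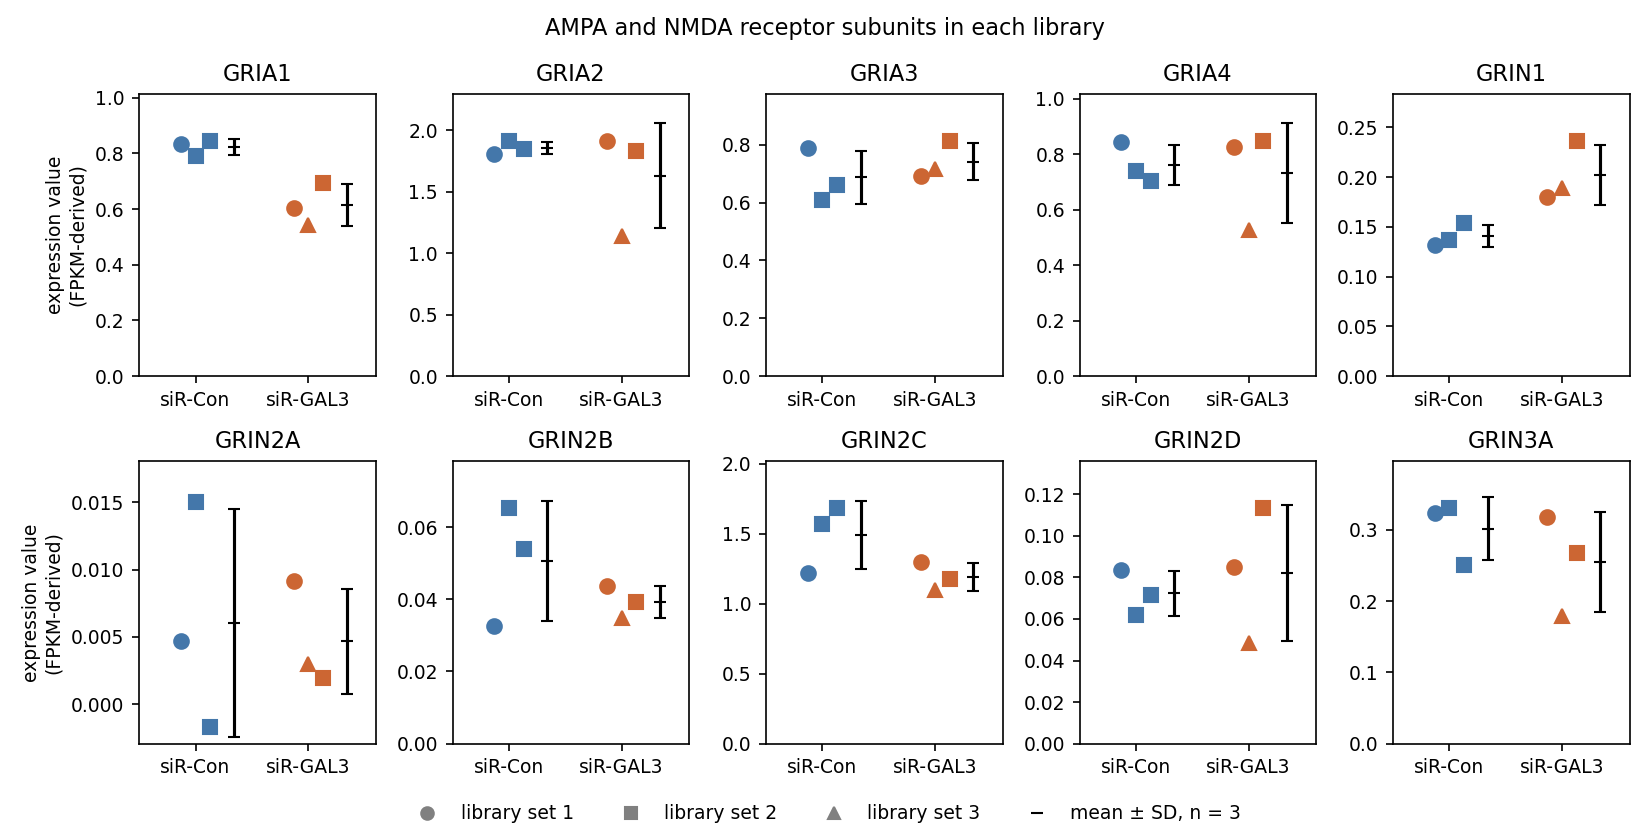
Expression value (vertical axis, FPKM-derived, a separate scale per gene) of the 10 subunits in the 3 siR-Con (blue) and 3 siR-GAL3 (orange) libraries, with the mean ± SD of each group. Marker shapes give the library sets found from exactly equal values. GRIA1 and GRIN1 are the genes whose groups do not overlap, and siR-GAL3 replicate 2 (triangle) is lowest for 6 genes.

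Among the NMDA receptor genes the obligatory subunit was scarce and GRIN2C stood highest. GRIN1 was at 0.132, 0.137 and 0.154 in siR-Con and at 0.181, 0.190 and 0.237 in siR-GAL3. Every siR-GAL3 value of GRIN1 was above every siR-Con value, and in all libraries the level lay in the lower part of the matrix (percentile 30.6 by mean). GRIN2C was at 1.22, 1.57 and 1.68 in siR-Con and at 1.30, 1.10 and 1.18 in siR-GAL3. It was between 4.97 and 11.5 times the level of GRIN1 in the single libraries. The siR-Con replicate 1 value of GRIN2C lay among the siR-GAL3 values, so the groups overlapped.

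The GluN2 genes usually linked to neurons were close to 0. GRIN2B was at 0.0326, 0.0653 and 0.0540 in siR-Con and at 0.0437, 0.0349 and 0.0392 in siR-GAL3. GRIN2A was between -0.00170 and 0.0150 over the 6 libraries, with its one value below 0 in siR-Con replicate 3. GRIN2D was between 0.0483 and 0.113, with its lowest value in siR-GAL3 replicate 2 and its highest in siR-GAL3 replicate 3. GRIN2C therefore made up 88.4% to 93.1% of the summed GRIN2A to GRIN2D values, whereas GRIN2B made up 3.08% ± 0.695 (SD, n = 3) in siR-Con and 2.98% ± 0.0567 (SD, n = 3) in siR-GAL3. GRIN3A was between 0.179 and 0.330, and its groups overlapped.

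Ordered by mean expression value over the 6 libraries, the subunits ran GRIA2, GRIN2C, GRIA4, GRIA1, GRIA3, GRIN3A, GRIN1, GRIN2D, GRIN2B and GRIN2A. Of the 9 neighbouring pairs in this order, 5 had the higher gene ahead in all 6 libraries, namely GRIA2 over GRIN2C, GRIN2C over GRIA4, GRIA3 over GRIN3A, GRIN1 over GRIN2D and GRIN2B over GRIN2A. Each reached the smallest two-sided p that the exact sign-flip test allows with 6 libraries, which was 0.0562 after Benjamini-Hochberg adjustment over the 9 pairs. GRIA4, GRIA1 and GRIA3 could not be ordered over the 6 libraries together. GRIA4 exceeded GRIA1 in 3 of 6 libraries (exact sign-flip p = 0.656), and GRIA1 exceeded GRIA3 in 3 of 6 (exact sign-flip p = 0.938). The split of GRIA1 and GRIA3 followed the groups, with GRIA1 above GRIA3 in every siR-Con library and below it in every siR-GAL3 library. That reversal was seen in the values and was not tested. GRIN3A exceeded GRIN1 in 5 of 6 libraries, siR-GAL3 replicate 2 being the exception, and GRIN2D exceeded GRIN2B in 5 of 6 (exact p = 0.0625 for each). The levels ranged from percentile 63.5 of all genes for GRIA2 to percentile 9.83 for GRIN2A.

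The kainate receptor genes GRIK5 and GRIK2, which encode channels related to AMPA receptors, had higher means than any of the 10 subunits. GRIK5 was at 2.40 to 3.58 and exceeded GRIA2 in 6 of 6 libraries, by 1.68 to 2.10 times. GRIK2 was at 1.90 to 2.27 and exceeded GRIA2 in 5 of 6 libraries. The delta receptor gene GRID1 had a mean of 1.17. GRIN3B, the other GluN3 gene, had a mean of 0.415 and exceeded GRIN1 in 6 of 6 libraries.

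**Figure D2:**
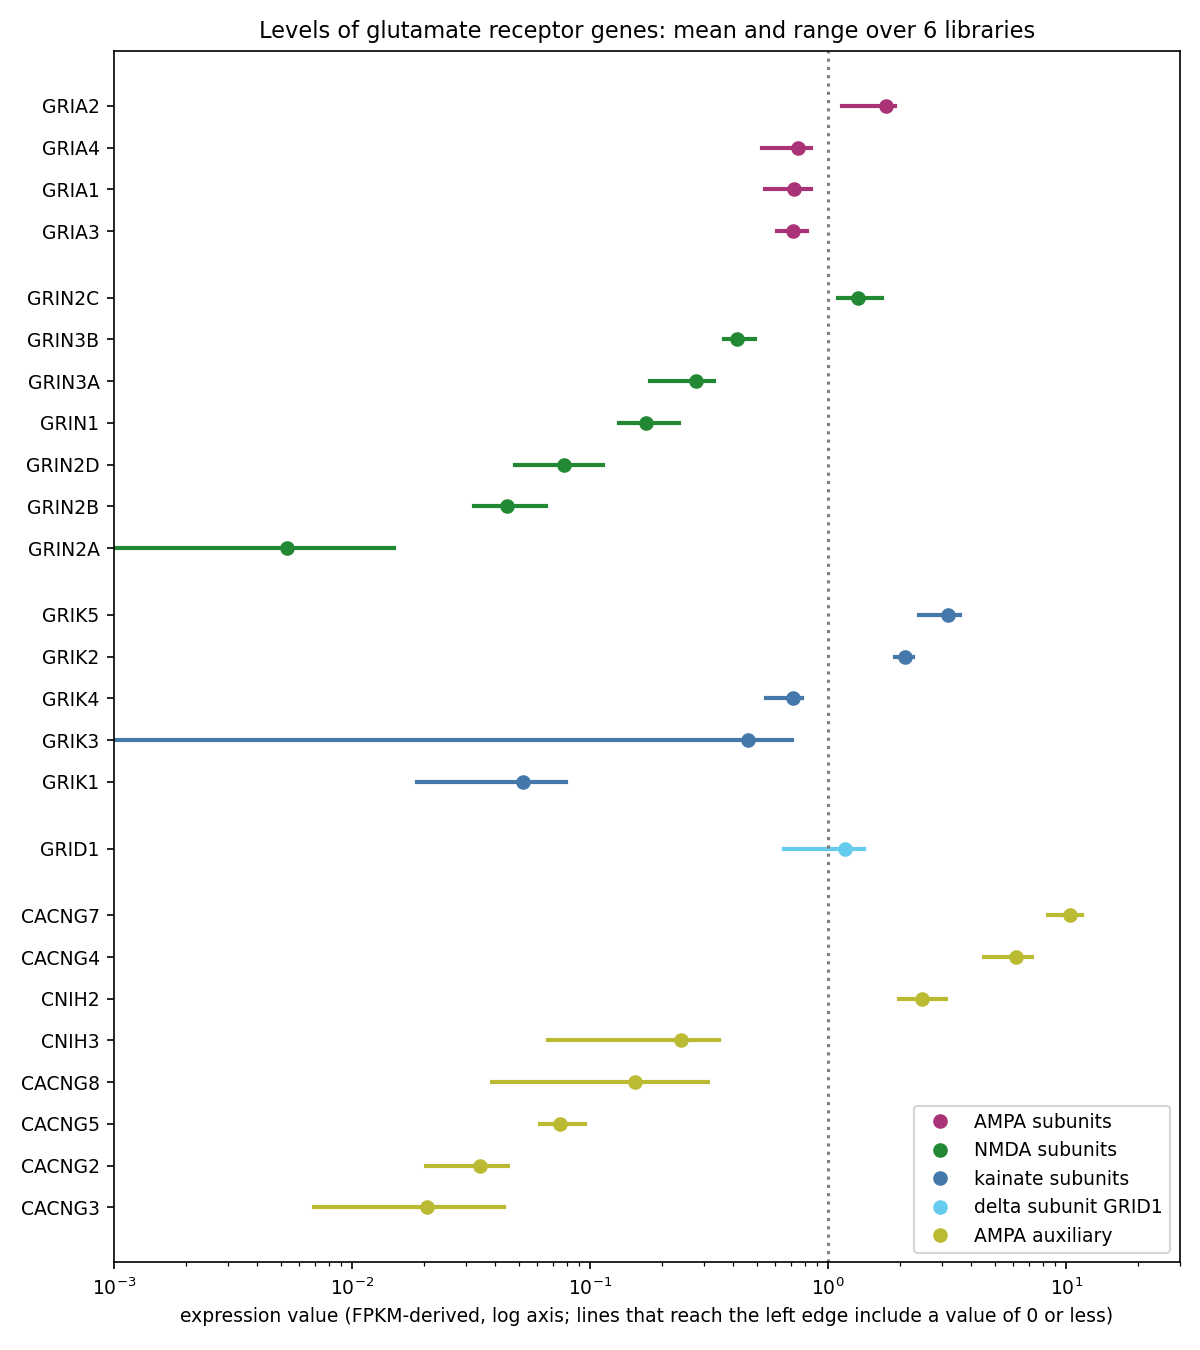
Mean (point) and range (line) of the expression value over the 6 libraries on a log axis for AMPA, NMDA and kainate receptor genes, GRID1 and AMPA auxiliary genes, with a dotted line at a value of 1. GRIK5 and GRIK2 lie above all AMPA and NMDA subunits, GRIN2C is the only NMDA subunit above 1, and GRIN2A has the lowest mean of the receptor genes drawn.

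The levels were read against markers of the cells the cultures could hold, since RNA came from whole cultures and fewer cells of a type cannot be told apart from less RNA per cell. Of the neuron markers, 11 of the 12 listed by hand were in the matrix, and SNAP25 was not listed under that symbol. MAP2, a dendritic cytoskeleton gene, had a mean of 16.9, while RBFOX3, which encodes the nuclear antigen NeuN, was at 0.300 to 0.429. GRIA2 was 3.80 to 5.06 times RBFOX3 in the single libraries, and GRIN1 was below RBFOX3 in all 6. None of the 11 genes that define transmitter identity had a mean of at least 1. GAD1, the enzyme that makes GABA, came closest at 0.988, and SLC17A6, the main vesicular glutamate transporter of spinal neurons, was at 0.0474 to 0.0818.

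Glial markers were among the most abundant genes, although the samples are labelled as neurons. GFAP, the astrocyte filament gene, had a mean of 590 and ranked 7 of all genes, and MBP, a myelin gene, had a mean of 713 and ranked 5. The summed level of the 10 astrocyte markers was 937 to 1077 in siR-Con and 811 to 875 in siR-GAL3, without overlap. GFAP contributed most to this sum. The 8 oligodendrocyte markers summed to 1055 to 1115 and 1059 to 1380, the 7 progenitor markers to 72.6 to 81.4 and 44.7 to 87.6. The 12 microglia markers summed to 111 to 132 and 142 to 162, again without overlap, whereas the 11 neuron markers overlapped at 41.6 to 46.4 and 42.5 to 47.5. Summed levels of the 8 fibroblast, endothelial and Schwann cell markers in the matrix were 57.8 to 65.4 and 49.5 to 53.8. No marker list had a gene with a mean of 0. The part of these cell types in the receptor values was not tested.

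**Figure D3:**
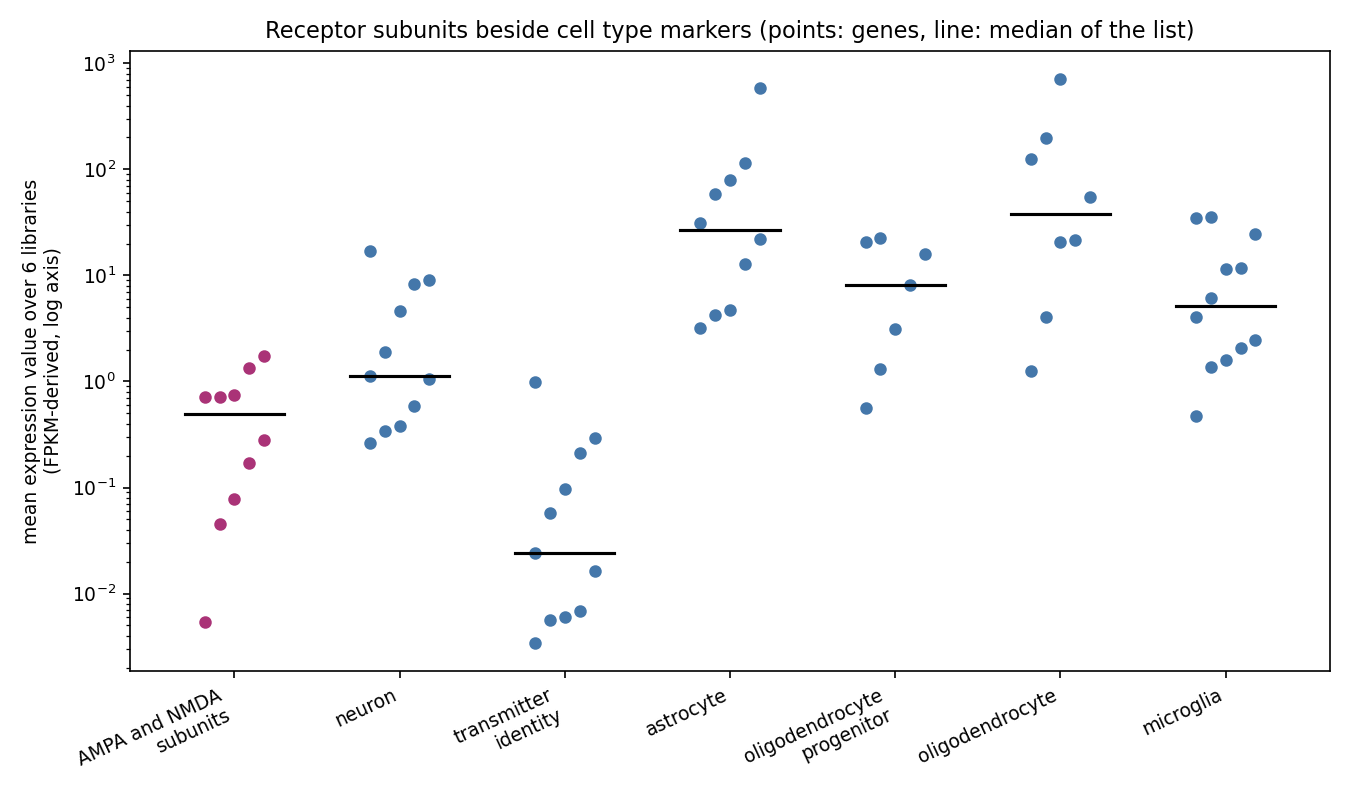
Mean expression value over the 6 libraries (log axis) of each of the 10 subunits and of each gene of 6 marker lists, with the median of each list as a line. The subunits sit below the neuron list by median and well below the astrocyte and oligodendrocyte lists, whose highest genes have means of 590 and 713.

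Whether silencing of GAL3 went with a different receptor complement was asked by comparing siR-GAL3 with siR-Con. LGALS3 itself was at 77.4, 54.4 and 62.4 in siR-Con and at -1.64, 32.3 and 18.5 in siR-GAL3, without overlap. By mean value 7 subunits were lower and 3 were higher in siR-GAL3. By log2 fold change with no filter, 8640 of all 17648 genes were lower. Of the 10 subunits 2 did not overlap between groups, beside 16.9% of all genes in the matrix and 13.5% of genes with a mean below 1. In limma over all 17648 genes with no filter on low values, the same 2 subunits had an unadjusted p under 0.05, beside 9.20% of all genes, and none had an adjusted p under 0.05 (0% of all genes). When limma was restricted to the 8495 genes whose mean was 1 or more, GRIA2 and GRIN2C were the subunits tested, neither had an unadjusted p under 0.05, and 8.66% of the genes did. LGALS3 itself had a log2 fold change of -2.91 (limma adjusted p = 0.589 with no filter, 0.571 with the filter). Neither fit called the silenced gene, so the lack of a call for a subunit does not show an unchanged level. The median log2 fold change of the 10 subunits was -0.02, and that of all genes 0.00051.

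GRIA1 had a mean expression value of 0.823 ± 0.0282 in siR-Con and 0.614 ± 0.0759 in siR-GAL3 (SD, n = 3 each), a difference of -25.4%. Its log2 fold change on the scale of log2(value + 1) was -0.18 ± 0.05 (SE; limma p = 0.0140, adjusted p = 0.413), and the exact permutation p was 0.1, the smallest that 3 against 3 libraries allow. This scale understates changes of low genes, and with a pseudocount of 0.1 the log2 fold change was -0.38. Summed astrocyte markers were lower in siR-GAL3 as well, as given above. Of the 10 single markers, 8 were lower and 2 higher by log2 fold change, beside 4248 of all 8495 genes tested that were lower. The higher markers were SLC1A3 (log2 fold change 0.06) and GJA1 (0.02). The part of the astrocyte markers in the GRIA1 difference was not tested.

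GRIN1 differed the other way. Its mean was 0.141 ± 0.0114 in siR-Con and 0.202 ± 0.0302 in siR-GAL3 (SD, n = 3 each), 43.6% higher, with a log2 fold change of 0.08 ± 0.02 (SE; limma p = 0.0123, adjusted p = 0.399) and an exact permutation p of 0.1. With a pseudocount of 0.1 the log2 fold change of GRIN1 was 0.32. The neuronal growth gene STMN2 was also without overlap, at 0.739 to 0.980 in siR-Con and at 1.15 or more in siR-GAL3 (log2 fold change 0.33, limma adjusted p = 0.324). It was the 1 neuron marker of 7 tested with an unadjusted limma p under 0.05, beside 8.66% of all genes tested. Of the 7, 5 were higher and 2 lower in siR-GAL3, beside 4247 of all 8495 genes tested that were higher. The 2 lower markers were MAP2 (log2 fold change -0.09) and TUBB3 (-0.12). The summed neuron markers overlapped. Neither GRIA1 nor GRIN1 passed the adjusted threshold.

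GRIN2C had means of 1.49 ± 0.243 and 1.19 ± 0.101 (SD, n = 3 each), with a log2 fold change of -0.18 ± 0.09 (SE; limma adjusted p = 0.585). GRIA2 had means of 1.85 ± 0.0525 and 1.63 ± 0.425, with a log2 fold change of -0.13 ± 0.12 (SE; limma adjusted p = 0.651). The GRIA2 difference rested on siR-GAL3 replicate 2, since without that library its log2 fold change was 0.0096. Of the other 6 subunits, GRIA3 and GRIN2D were higher and GRIA4, GRIN2A, GRIN2B and GRIN3A lower in siR-GAL3 by mean, with log2 fold changes between -0.05 and 0.05 and overlapping groups.

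Exactly equal values shared between columns split the libraries into a first set with replicate 1 of each group, a second set with replicate 3 of each group and siR-Con replicate 2, and a set with siR-GAL3 replicate 2 only. What the sets stand for is not given in the sources used here. That lone library was the lowest of all 6 for 6 of the 10 subunits, beside 28.4% of all genes. Within the first set GRIA1 was lower in siR-GAL3 by -0.229 and within the second by -0.124 in expression value, and GRIN1 was higher by 0.0486 and 0.0915. The signs for GRIA1 and GRIN1 were fixed beforehand, since their groups did not overlap. The GRIN2C difference had opposite signs, 0.0810 in the first set and -0.449 in the second. A fit that blocked on the library set gave log2 fold changes of -0.14 for GRIA1 (limma adjusted p = 0.429) and 0.09 for GRIN1 (limma adjusted p = 0.356), and GRIA4 turned from -0.03 to 0.05. In the blocked fit siR-GAL3 replicate 2, alone in its set, carried no weight in the group difference. Over 11 fits without a filter the adjusted p ran from 0.283 to 0.835 for GRIA1 and from 0.294 to 0.835 for GRIN1.

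**Figure D4:**
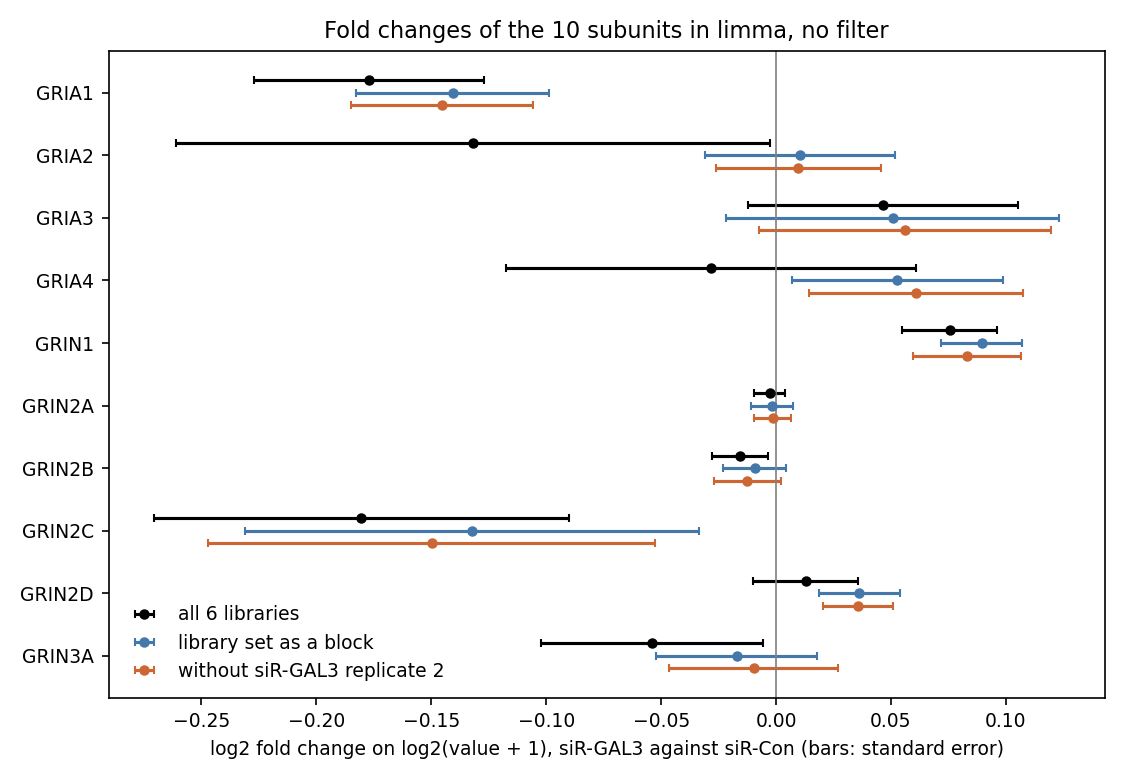
Log2 fold change of siR-GAL3 against siR-Con on log2(value + 1) for the 10 subunits in limma over all genes, with the standard error as bars, for all 6 libraries (black), with a block for the library set (blue) and without siR-GAL3 replicate 2 (orange). GRIA1 is below 0 and GRIN1 above 0 in all 3 fits, signs fixed by their groups not overlapping, while GRIA2 and GRIA4 cross 0. The blue and orange fits are not separate checks, since siR-GAL3 replicate 2 is alone in its set and carries no weight in the blue group difference.

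The make-up of the receptors was compared as shares within a library, which need no scaling between libraries. GRIA2 made up 42.3%, 47.1% and 45.6% of the summed AMPA subunit values in siR-Con and 47.5%, 39.0% and 43.7% in siR-GAL3. The groups overlapped, with means of 45.0% ± 2.48 and 43.4% ± 4.25 (SD, n = 3 each; exact permutation p = 0.7). GRIA1 made up 19.5% to 20.9% of the sum in siR-Con and 15.0% to 18.6% in siR-GAL3, without overlap.

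The ratio of GRIN1 to the summed GRIN2 values was 0.0986, 0.0801 and 0.0850 in siR-Con and 0.126, 0.160 and 0.178 in siR-GAL3. All siR-GAL3 ratios were above all siR-Con ratios, with an exact permutation p of 0.1 that became 0.4 after adjustment over the 4 shares and ratios tested. In no library did GRIN1 exceed 0.178 of the GRIN2 sum. The ratio of the AMPA to the NMDA subunit sum was 2.02 ± 0.309 in siR-Con and 2.08 ± 0.199 in siR-GAL3 (SD, n = 3 each; exact permutation p = 0.8). This NMDA sum held GRIN1, GRIN2A to GRIN2D and GRIN3A, and left out GRIN3B (mean 0.415). The summed AMPA values were 4.27, 4.05 and 4.06 in siR-Con and 4.03, 2.93 and 4.19 in siR-GAL3, with siR-GAL3 replicate 2 lowest.

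**Figure D5:**
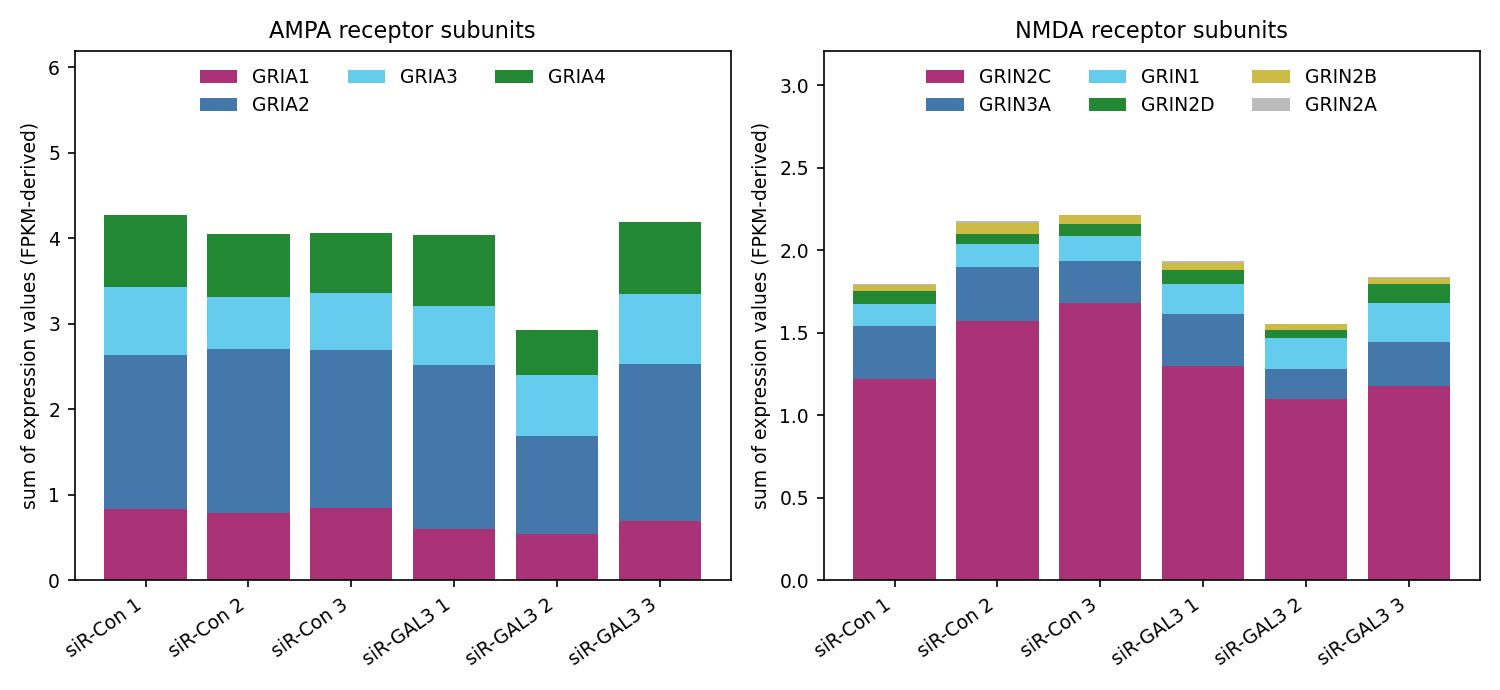
Stacked expression values of the AMPA subunits (left) and NMDA subunits (right, without GRIN3B) in each library, with values below 0 drawn as 0. GRIA2 is the largest AMPA share in every library, GRIN2C the largest NMDA share, and the AMPA stack of siR-GAL3 replicate 2 reaches 2.93 against 4.03 to 4.27 in the others.

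Auxiliary proteins set where AMPA receptors go and how fast they close, and 25 of the 27 listed by hand were in the matrix. Of the 15 with a mean of at least 1, 1 had an unadjusted limma p under 0.05, beside 8.66% of all genes tested, and the median log2 fold change was -0.03, beside -1.2e-05 for all genes tested. CACNG7, a transmembrane AMPA receptor regulatory protein (TARP), was the most abundant of the list at 11.2, 10.9 and 11.6 in siR-Con and 9.48, 8.41 and 10.6 in siR-GAL3. Its groups did not overlap (log2 fold change -0.23, limma adjusted p = 0.555). CACNG4, another TARP of glia and developing neurons, was at 6.31, 6.89 and 7.20 and at 6.07, 4.50 and 6.03, also without overlap (log2 fold change -0.26, limma adjusted p = 0.577). CNIH1, an export factor of the endoplasmic reticulum, was at 8.49 to 8.86 in siR-Con and 9.20 to 12.3 in siR-GAL3 (log2 fold change 0.24, limma adjusted p = 0.577).

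The TARP genes best known from forebrain and cerebellar neurons were low. CACNG2 (stargazin) did not exceed 0.0453 in any library, and CACNG7 was 193 to 551 times higher in the single libraries. CACNG8 was at 0.313, 0.186 and 0.176 in siR-Con and at 0.104, 0.0388 and 0.110 in siR-GAL3, without overlap (log2 fold change with no filter -0.17, limma adjusted p = 0.422).

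Scaffold and trafficking genes hold the receptors at the synapse. DLGAP4, a scaffold-associated gene, and DLG4 (PSD-95) were the most abundant, DLG4 at 8.32 to 9.12 in siR-Con and 5.89 to 9.10 in siR-GAL3. Of the 25 listed, 13 had a mean of at least 1, of which 11 were lower in siR-GAL3, beside 4248 of all 8495 genes tested. DLG3 and SHANK3 had log2 fold changes of -0.14 and -0.30 (limma adjusted p = 0.577 for each). The median of the list was -0.14 but 0.01 after blocking on the library set, and siR-GAL3 replicate 2 had the lowest sum of the list, 42.1 against 58.2 to 61.5 in the other libraries.

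Of the calcium signalling genes next to the NMDA receptor, 15 of 21 had a mean of at least 1 and none of the 15 had an unadjusted limma p under 0.05, beside 8.66% of all genes tested. FYN, a kinase that acts on GluN2 subunits, was among the most abundant at 24.0 to 50.9, with its lowest value in siR-GAL3 replicate 2. The smallest p belonged to SRC, at 5.08 to 5.34 in siR-Con and 4.18 to 4.86 in siR-GAL3 (log2 fold change -0.15, limma adjusted p = 0.585). CAMK2A, the kinase of excitatory forebrain neurons, was at 0.0686 to 0.265 over the 6 libraries, and CAMK2D, its widely expressed relative, at 4.54 to 4.94.

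NMDA receptors also need glycine or D-serine, and 9 of the 12 supply genes in the matrix had a mean of at least 1, 3 of them with an unadjusted limma p under 0.05, beside 8.66% of all genes tested. SLC6A9, the glycine transporter GlyT1 of glia, was at 5.94, 6.14 and 6.60 in siR-Con and at 5.39, 4.79 and 4.93 in siR-GAL3. All siR-GAL3 values of SLC6A9 lay below the siR-Con values (log2 fold change -0.26, limma adjusted p = 0.371). PSAT1 and PSPH are successive enzymes of serine synthesis. PSAT1 was lower in siR-GAL3 (log2 fold change -0.19, limma adjusted p = 0.474) and PSPH higher (log2 fold change 0.27, limma adjusted p = 0.535), both without overlap and neither past the adjusted threshold. PHGDH, the first enzyme of the pathway, was the most abundant of the list at 26.8 to 30.5 in siR-Con and 22.9 to 27.8 in siR-GAL3. The median log2 fold change of the list was -0.09.

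Calcium entry through AMPA receptors depends on editing of the GRIA2 transcript by ADARB1. ADARB1 was at 1.27, 1.24 and 1.28 in siR-Con and at 1.26, 0.639 and 1.23 in siR-GAL3 (log2 fold change -0.16, limma adjusted p = 0.626). As for GRIA2, siR-GAL3 replicate 2 stood alone at the low end. ADAR, a related editing enzyme, was at 3.84, 3.52 and 3.37 in siR-Con and at 5.91, 1.27 and 5.03 in siR-GAL3, so that the same library lay below and the other siR-GAL3 libraries above every siR-Con value. Its log2 fold change was -0.0048 over all libraries (limma adjusted p = 0.997). It was 0.47 after blocking on the library set (limma adjusted p = 0.0196) and 0.50 without siR-GAL3 replicate 2 (limma adjusted p = 0.0236). The block and the leave-out are not separate checks, since siR-GAL3 replicate 2 is alone in its set and carries no weight in the blocked group difference. Over all fits the adjusted p of ADAR ran from 0.0196 to 1.0. Editing itself was not measured in these values.

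The genes of mean at least 5 whose profile over the 6 libraries came closest to a subunit were found by the root mean square difference of centred log2(value + 1), among 2600 genes. For GRIA2 they were KLHL5 (0.0114), ADAM10 (0.0114) and THRAP3 (0.0163), against a spread of 0.157 in the GRIA2 profile itself. These profiles shared a low value in siR-GAL3 replicate 2, with ADAM10 at 5.31 there and at 7.40 to 7.78 in the other libraries. For GRIN1 they were RBM22 (0.0135), NUCB1 (0.0171) and ARPC1A (0.0173), against a spread of 0.0439 in GRIN1. Because the scale of log2(value + 1) understates changes of low genes, closeness here does not mean an equal relative change. RBM22 was at 6.21 to 6.32 in siR-Con and at 6.58 to 6.78 in siR-GAL3, whereas GRIN1 was 43.6% higher by mean.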

How the data were processed

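RNA-seq of 6 libraries was used, 3 per group. The paper names STAR for alignment, HTSeq for counting and FPKM as the unit; batch effects were then removed and differences within groups corrected, with no tool given, and the deposited values were treated as a score derived from FPKM by the authors, on a linear scale. The labels state ribosomal RNA depletion and the supplement poly-A selection, which could change which transcripts were counted. Every column was mapped to a sample by name, and no reads could be recovered.

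Values below 0 were set to 0, and log2(value + 1) was fitted with limma 3.58.1 in R 4.3.3 (intensity trend, Benjamini-Hochberg adjustment over all genes tested), with and without a filter on a mean of at least 1. The unit planned was FPKM and the fit was kept. Shares, ratios and the order of levels were compared with exact two-sided permutation tests in Python 3.11.15 with NumPy 2.4.6. The limma script was tested on simulated data.

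The genes and lists were chosen with earlier results of these data known. Of each list, genes past an adjusted p of 0.05, up to 3 with the smallest p and up to 2 with the highest mean were to be named, and for GRIA2 and GRIN1 the 3 nearest profiles, besides the 10 subunits, LGALS3, ADARB1 and GRIN3B. RBFOX3, SLC17A6, CACNG2, CACNG8, CAMK2A and CAMK2D were named after their values were seen. Not every gene the rule selects is reported here. Alternatives were other pseudocounts, filters, scalings, blocks, the linear scale and leaving out each library.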

Additional observations from a re-analysis of the deposited data

How the results depend on the processing

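Of 495 recomputed values, 458 kept their direction and their side of the threshold, and 24 of the 38 results did so under every alternative tried. Leaving out any one library gave log2 fold changes of -0.21 to -0.15 for GRIA1 and of 0.05 to 0.09 for GRIN1. The difference in the ratio of GRIN1 to the GRIN2 sum was then between 0.0550 and 0.0811. Since the groups did not overlap for GRIA1, GRIN1 and this ratio, these signs could not change, and only the sizes are informative. Leaving out one library moved the difference in the GRIA2 share between -3.63 and 0.606 percentage points, in the GRIN2B share between -0.422 and 0.268 points and in the AMPA to NMDA ratio between -0.0396 and 0.238. Without siR-GAL3 replicate 2, 167 of the 8495 genes whose mean was 1 or more had an adjusted p under 0.05 (0 to 167 over all libraries left out in turn, none of them a subunit), and 0 of 17648 with no filter. With one library left out, 344 to 1388 of the 8495 genes had an unadjusted p under 0.05, and 0 to 1 of GRIA2 and GRIN2C. With no filter, 1017 to 2355 of the 17648 genes did, and 2 to 4 of the 10 subunits. The 4 were reached without siR-Con replicate 1.

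The library set as a block gave 106 of the 8495 genes with an adjusted and 1174 with an unadjusted limma p under 0.05. With the block and no filter it was 0 of 17648 adjusted. This block gives siR-GAL3 replicate 2 no weight in the group difference, so it is no separate check from leaving that library out. Unadjusted counts were 1623 with no filter, 121 with a mean of at least 10, and 1528 for values not log-transformed, a fit that also had no filter and no intensity trend. The 27 genes past a log2 fold change of 1 and an unadjusted p under 0.05 became 5 with a mean of at least 10, which left no subunit to test, and 15 without genes holding a value below 0. On the linear scale with no filter, 316 of 17648 genes passed a difference of 1 in expression value and an unadjusted p under 0.05, which is another criterion. Directions turned for GRIA2 (0.0103 with the set as a block, up to 0.0096 with a library left out), GRIA4 (0.0528 with the block and no filter, 0.0044 without siR-Con replicate 1, 0.0608 without siR-GAL3 replicate 2), GRIN2A (0.0033 without siR-Con replicate 2), GRIN2D (-0.0078 without siR-GAL3 replicate 3) and ADAR (-0.305 to 0.498 with a library left out, 0.472 with the block, 0.495 in expression value). The causes were not tested.

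The replicate numbers did not pair the libraries (correlations of same-numbered deviations -0.170, -0.0699 and 0.0441). With the replicate block 6 of the 8495 genes had an adjusted p under 0.05, and neither GRIA2 nor GRIN2C an unadjusted one. With the block and no filter, 0 of 17648 genes had an adjusted and 1184 an unadjusted p under 0.05, 2 of the 10 subunits among the latter. Depth is unknown, and for the 8 subunits with a mean below 1 no counting error could be set beside the spread of 3 libraries.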

Other observations

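Profiles nearest to GRIN2C and GRIA1 were added after their values had been seen. For GRIN2C they were ADD3 (root mean square difference 0.0264), the adhesion receptor CD44 (0.0319) and the matrix gene MATN2 (0.0363), against a spread of 0.129 in GRIN2C. CD44 was at 16.5, 18.2 and 20.4 in siR-Con and at 17.1, 14.9 and 15.8 in siR-GAL3. For GRIA1 they were JUN (0.0284), an immediate early transcription factor, ZCCHC24 (0.0287) and the junctional adhesion gene JAM2 (0.0325), against a spread of 0.0976. JUN was at 16.5, 15.6 and 16.1 in siR-Con and at 14.6, 13.7 and 15.4 in siR-GAL3. Its groups did not overlap, which its choice as a match to GRIA1 favoured.

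Of the scaffold genes too low for the filter, GRIP2, which binds the tails of AMPA receptor subunits, was at 0.0655, 0.0467 and 0.0528 in siR-Con and at 0.120, 0.120 and 0.179 in siR-GAL3 (limma with no filter, adjusted p = 0.316). The activity-induced gene ARC was at 0.0481, 0.0290 and 0.0188 and at 0.0683, 0.0613 and 0.0805 (limma adjusted p = 0.342). Both were named after their values were seen.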
